A study of Mus musculus with 6 samples.

Results

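The genes described here encode the folding and quality-control machinery of the endoplasmic reticulum (ER): its stress sensors, its chaperones, its protein isomerases, the factors that send misfolded proteins to degradation, and subunits of the channel through which new proteins enter. A list of 32 gene symbols defined them, and 31 were found among the 11789 protein-coding genes of the deposited FPKM table (fragments per kilobase of transcript, scaled to the mapped fragments of each library). Derl3, which encodes a derlin of the degradation channel, has no level analysed here. All 31 passed the minimum mean of 1 FPKM used for testing, so none was lost to that filter. The list was not drawn from values of this comparison by a threshold, although it was proposed with results of these data known.

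RNA was sequenced from alveolar macrophages, the resident phagocytes of the air spaces, of C57BL/6 mice in 2 groups. The A20 conditional knockout group had 3 libraries (A20-1, A20-3 and A20-4) and the wild-type group had 3 (BLM1, BLM2 and BLM3), and per the series title both groups followed an exposure abbreviated BLM. The BLM columns are named for this exposure and were taken as wild type because it is the only other group. A20 is the product of Tnfaip3 and restrains inflammatory signalling through ubiquitin chains. The promoter or cell type behind the conditional deletion, the deleted exons, the age of the mice, the dose and the day of collection are not given in the labels, nor is whether a library was 1 animal or a pool, so the p-values measure the spread between these libraries, part of which may be technical.

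Sums of FPKM ran from 266094 to 277394 in the knockout and from 280415 to 294525 in the wild-type libraries, and the read depth behind them is unknown. Tnfaip3 had 8.44, 12.9 and 6.80 FPKM in the knockout libraries, against 4.47, 2.18 and 21.6 FPKM in the wild-type libraries (exact two-sided permutation test, p = 1, with 0.1 the smallest value possible), so its whole-gene level did not check the label. BLM3 stood apart from the other wild-type libraries, with Pearson correlations across genes of 0.925 and 0.913 to BLM1 and BLM2, against 0.982 between those 2. Genes of alveolar macrophages were abundant in all 6 libraries, and the summed FPKM of 18 such genes ran from 16418 to 21602 in the knockout and from 12644 to 22216 in the wild-type libraries. Gene by gene, 13 differences (knockout minus wild type) were positive and 5 negative, with a median log2 difference of 0.62. In every knockout library 7 were higher and 2 lower, against 15.9% and 13.1% of all genes tested. In the limma test 1 of the 18 fell, against 0.851%. Neutrophil genes (9 in the table) summed to 115 to 158 FPKM in the knockout libraries, against 150.1 in BLM1, 163 in BLM2 and 2830.4 in BLM3. Of the 8 tested, 6 had negative and 2 positive differences, with a median log2 difference of -1.54. In every knockout library 4 were lower and 0 higher, and 0 passed the limma test. Over all 10696 genes tested with limma, 27 rose and 91 fell in the knockout libraries (41 and 64 after rescaling each library to TPM).

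Proteins that enter the secretory pathway fold in the ER with the help of the HSP70-type chaperone BiP, the HSP90-type chaperone GRP94, lectin chaperones that bind N-glycans, and enzymes that form disulfide bonds. When unfolded proteins accumulate, 3 membrane sensors (IRE1, PERK and ATF6) start the unfolded protein response, which slows translation and raises the transcription of chaperones and degradation factors through XBP1, ATF6 and ATF4. Proteins that fail to fold are passed back to the cytosol through the SEL1L and HRD1 complex and degraded by the proteasome. Macrophages carry this system as secretory and phagocytic cells, and in mouse macrophages IRE1 and XBP1 are also known to act downstream of Toll-like receptors.

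The promoters of many of these genes hold ER stress response elements, which ATF6 and XBP1 bind together with NF-Y. These sequences are shown because they are a feature that several members share. The list is of genes known for this response, so the share of members with an element is not an independent result. Windows from 250 bases before to 50 bases after the RefSeq gene start (GRCm38.p6) were on hand for 27 of the 32 symbols, all except Atf6, Hyou1, Manf, Derl1 and Sec61a1. The classical element, ERSE (CCAAT, then any 9 bases, then CCACG, searched on both strands), was found in 9 of these 27 genes, against 0.119% of all 32851 windows in the table. The shorter ERSE-II (ATTGG, then any 1 base, then CCACG, both strands) was found in 2 of the 27, Herpud1 and Dnajb11, against 0.0365% of all windows. The UPRE core (TGACGTG, both strands) was found in Hspa5 and in an alternative start of Fkbp11, against 2.01% of all windows. No match overlapped another. The shares of members count genes, some with an alternative start, whereas the shares beside them count windows. A match describes letters in the window and does not show that a factor bound there. The stretches below read 5′ to 3′ along the gene's strand with 10 flanking bases on each side, and capitals mark the element, which appears as its reverse complement where it lies on the opposite strand.
Hspa5 (chr2:34772015-34772053, plus strand): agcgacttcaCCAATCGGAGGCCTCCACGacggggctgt
Hsp90b1 (chr10:86705628-86705666, minus strand): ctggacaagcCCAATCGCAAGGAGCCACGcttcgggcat
Hsp90b1 (chr10:86705523-86705561, minus strand): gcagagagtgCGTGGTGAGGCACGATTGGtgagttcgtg
Calr (chr8:84847065-84847103, minus strand): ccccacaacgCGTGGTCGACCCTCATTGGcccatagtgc
Canx (chr11:50325790-50325828, minus strand): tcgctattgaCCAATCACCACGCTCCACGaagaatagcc
Dnajc3 (chr14:118937817-118937855, plus strand): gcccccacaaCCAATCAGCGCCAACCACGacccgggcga
Creld2 (chr15:88819510-88819548, plus strand): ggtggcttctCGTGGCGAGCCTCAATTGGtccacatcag
Pdia6 (chr12:17266481-17266519, plus strand): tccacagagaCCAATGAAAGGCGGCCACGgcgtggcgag
Syvn1 (chr19:6046522-6046560, plus strand): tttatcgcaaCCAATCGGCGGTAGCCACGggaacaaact
Derl3 (chr10:75893232-75893270, plus strand): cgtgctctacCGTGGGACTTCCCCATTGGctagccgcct

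**Figure D1:**
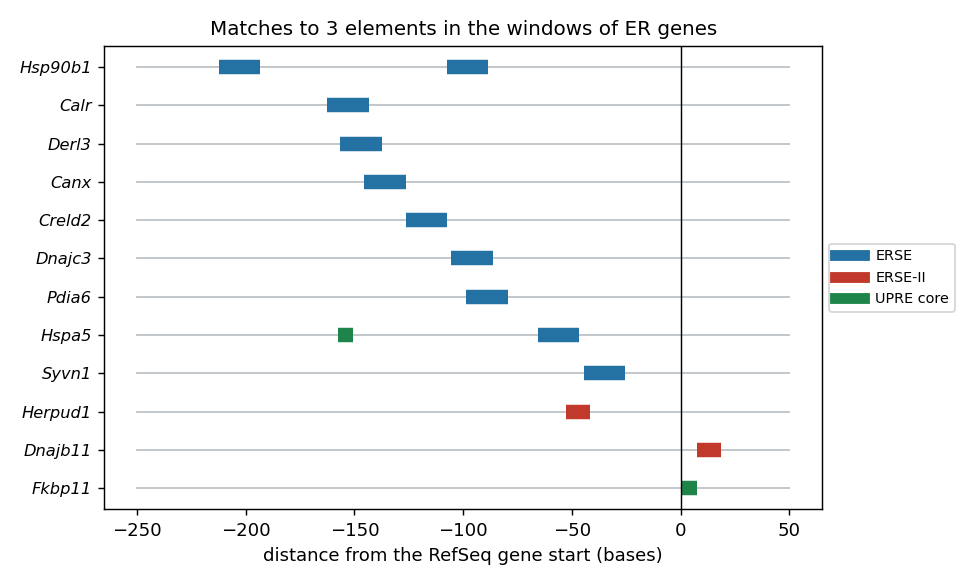
Positions of the matches to ERSE, ERSE-II and the UPRE core in the windows of the 12 genes that hold one. The x axis is the distance in bases from the RefSeq gene start (vertical line), and each grey line is a window; the matches of ERSE lie between 212 and 26 bases before the start.

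Fkbp11 and Herpud1 had the lowest and the highest difference among the 31 genes, so the 250 bases before their starts are given whole. In the stretch of Fkbp11 whose start is that of the deposited table (GRCm38.p6 chr15:98728199-98728448, minus strand) no match to any of these 3 elements was found, and the stretch is in lower case throughout. That of Herpud1 (GRCm38.p6 chr8:94386179-94386428, plus strand) holds ERSE-II, in capitals, from 52 to 42 bases before the start.
Fkbp11: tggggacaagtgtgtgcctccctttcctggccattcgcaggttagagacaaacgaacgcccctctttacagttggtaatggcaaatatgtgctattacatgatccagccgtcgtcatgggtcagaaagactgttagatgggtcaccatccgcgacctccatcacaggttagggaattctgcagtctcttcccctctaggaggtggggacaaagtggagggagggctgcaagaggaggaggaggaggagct
Herpud1: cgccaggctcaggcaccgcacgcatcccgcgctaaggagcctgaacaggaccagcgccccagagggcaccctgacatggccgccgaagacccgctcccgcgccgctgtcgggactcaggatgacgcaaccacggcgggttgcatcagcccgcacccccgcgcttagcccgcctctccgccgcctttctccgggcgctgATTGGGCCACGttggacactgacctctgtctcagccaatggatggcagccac

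Levels spanned a wide range, and FPKM, being scaled to length, can be set side by side between genes. Averaged over the 6 libraries, Calr was highest at 351 FPKM, followed by Pdia3 at 202, Hsp90b1 at 186, P4hb at 172 and Hspa5 at 142 FPKM. The 3 sensors were among the least abundant, with Eif2ak3 at 8.83, Atf6 at 8.13 and Ern1 at 7.96 FPKM, and only Fkbp11 was lower, at 6.71 FPKM.

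Of the 31 genes, 1 fell and 0 rose in the A20 conditional knockout libraries (limma on log2(FPKM + 1), Benjamini-Hochberg adjusted p under 0.05 over all genes tested), against 0.851% of all genes tested that fell and 0.252% that rose. The gene that fell was Fkbp11. At an unadjusted limma p under 0.05, 13 members were higher and 1 was lower, against 11% and 9.3% of all genes. In 15 members all 3 knockout libraries lay above all 3 wild-type libraries, and in 1 they lay below, against 15.9% and 13.1% of all genes tested. The other 15 members overlapped between the groups. The median log2 difference (knockout minus wild type, log2(FPKM + 1) scale, on which a low gene shows less than its true fold) was 0.20 over the members and 0.02 over all genes tested, with 24 members positive and 7 negative. Without BLM3 the median was 0.21, with 21 positive and 10 negative, and again 1 fell and 0 rose (1.35% of all genes rose and 2.5% fell without it).

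The count of rises depended on how libraries were weighted. When limma estimated a weight for each library, which was 6.09 for BLM1, 0.229 for BLM3 and between 0.728 and 1.26 for the other 4, 11 members rose and 1 fell, against 8.81% and 9.27% of all genes. The 11 were Xbp1, Ern1, Herpud1, Syvn1, Hyou1, Dnajb9, Manf, Creld2, Hsp90b1, Pdia4 and Pdia6. All 11 were among the 15 that were higher in every knockout library than in any wild-type library. With equal weights none of these 11 passed, and their adjusted p ran from 0.0635 for Herpud1 to 0.187 for Hsp90b1.

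**Figure D2:**
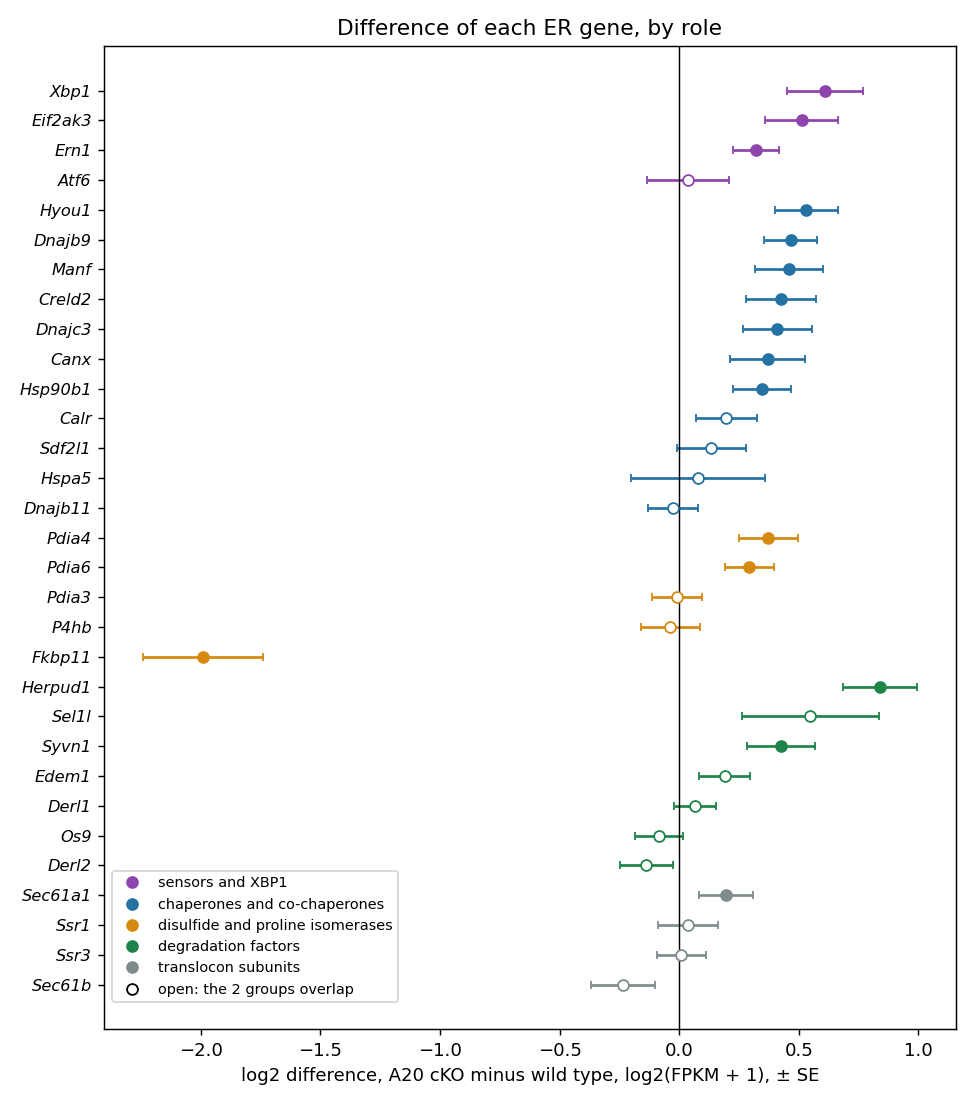
Log2 difference, A20 conditional knockout minus wild type, of each of the 31 genes on the log2(FPKM + 1) scale, grouped by role. Points are limma estimates with bars of 1 SE, and open points mark genes whose 2 groups overlap; Fkbp11 lies at -1.99 and Herpud1 at 0.84.

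Among the sensors and their transcription factor, 3 of 4 were higher in every knockout library than in any wild-type library, against 15.9% of all genes tested. The test was passed by 0 of 4, and the median log2 difference was 0.42. Xbp1 encodes the transcription factor whose mRNA is spliced by IRE1. It had 83.4, 107 and 85.97 FPKM in the knockout libraries, against 55.7, 71.5 and 53.1 FPKM in the wild-type libraries. The lowest knockout value lay above the highest wild-type value, and the log2 difference was 0.61 ± 0.16 (SE, limma adjusted p = 0.118). Whole-gene FPKM does not separate spliced from unspliced Xbp1. Ern1, which encodes the sensor and nuclease IRE1, had 9.22, 8.26 and 9.41 FPKM in the knockout libraries, against 6.98, 6.87 and 7.04 FPKM in the wild-type libraries. The wild-type values were nearly equal and all lower, and limma gave a difference of 0.32 ± 0.10 on the log2 scale (SE, adjusted p = 0.144). Eif2ak3 encodes PERK, the kinase that phosphorylates eIF2α and slows translation. Its FPKM was 10.5, 9.57 and 11.5 in the knockout libraries, against 8.74, 5.89 and 6.79 in the wild-type libraries, again without overlap (log2 difference 0.51 ± 0.15, SE, limma adjusted p = 0.145). Atf6, the sensor that is cleaved in the Golgi to release a transcription factor, had groups that overlapped. It had 9.47, 6.30 and 9.08 FPKM in the knockout libraries, with A20-3 the lowest of all 6, against 9.24, 7.43 and 7.27 FPKM in the wild-type libraries. Its log2 difference was 0.037 ± 0.17 (SE, limma adjusted p = 0.920), and whether it differed from that of the other sensors was not tested.

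**Figure D3:**
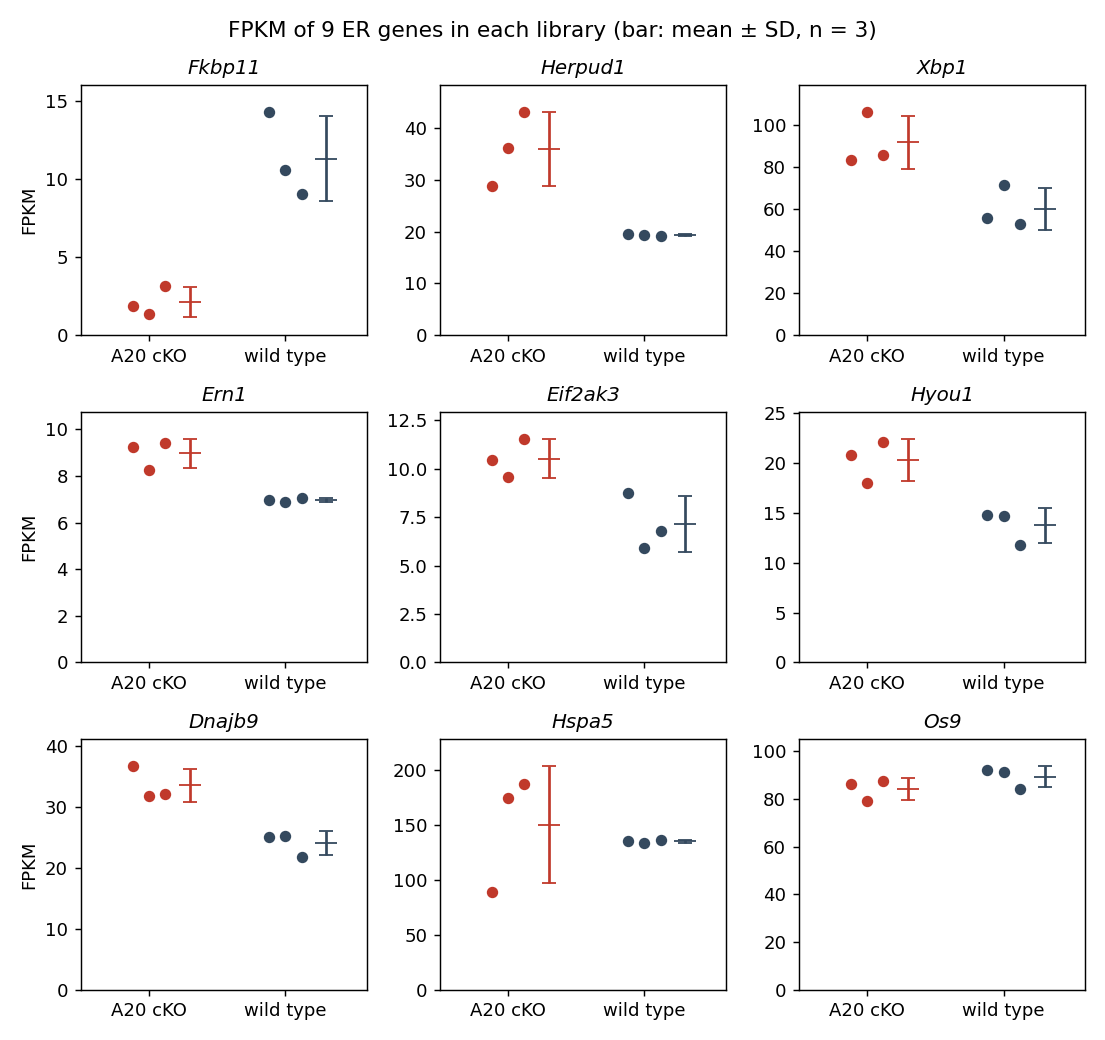
FPKM of 9 ER genes in each of the 6 libraries (y axes start at 0), with the mean and SD of 3 libraries beside the points. Fkbp11 is lower in every knockout library, Herpud1, Xbp1, Ern1, Eif2ak3, Hyou1 and Dnajb9 are higher in every one, Hspa5 is split by library A20-1 at 88.8 FPKM, and Os9 overlaps.

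The 11 chaperones and co-chaperones had a median of 0.37 for the log2 difference. In 7 of them the groups did not overlap and the knockout libraries were higher, against 15.9% of all genes tested. Of the differences 10 were positive, and 0 passed the test. At an unadjusted limma p under 0.05, 6 passed, all higher, against 11% of all genes tested that were higher. Hspa5, which encodes BiP, the main ER chaperone and the partner that holds the sensors inactive, was not among the 7. It had 88.8, 174 and 187 FPKM in the knockout libraries, against 136, 133 and 136 FPKM in the wild-type libraries. A20-1 was the lowest of all 6 libraries and the other 2 knockout libraries were the highest, while the wild-type values lay within a few FPKM of each other. The log2 difference was 0.078 ± 0.28 (SE, limma adjusted p = 0.894), 0.42 when A20-1 was left out (adjusted p = 0.202) and -0.12 when A20-4 was (0.875). The library A20-1 was also the lowest knockout library for 28 of 32 cytosolic and mitochondrial heat shock genes. One of them, Hsph1, which encodes an HSP110-type co-chaperone, was at 8.68, 29.4 and 30.1 FPKM in the knockout libraries, against 5.41, 4.99 and 5.04 FPKM in the wild-type libraries.

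Hsp90b1 encodes GRP94, which folds Toll-like receptors and integrins. It had 192, 212 and 219.7 FPKM in the knockout libraries, against 162, 181 and 148 FPKM in the wild-type libraries, so that the knockout libraries were all higher (log2 difference 0.35 ± 0.12, SE, limma adjusted p = 0.187). Hyou1, an HSP110-type nucleotide exchange factor for BiP, had 20.7, 17.9 and 22.1 FPKM in the knockout libraries, against 14.8, 14.6 and 11.7 FPKM in the wild-type libraries. This was the highest difference of the chaperone group, at 0.53 ± 0.13 (SE, limma adjusted p = 0.109). Dnajb9, a J-protein that returns BiP to IRE1 and a known target of XBP1, had 36.7, 31.8 and 32.2 FPKM in the knockout libraries, against 25.1, 25.3 and 21.8 FPKM in the wild-type libraries (log2 difference 0.47 ± 0.11, SE, limma adjusted p = 0.104). These 2 genes did not overlap between groups and were among the 11 that rose with library weights. Manf, a secreted ER protein induced by ER stress, had 29.01, 31.999 and 31.2 FPKM in the knockout libraries, against 21.7, 26.6 and 18.6 FPKM in the wild-type libraries. Its gene model overlaps Dcaf1 on the opposite strand and Rbm15b on the same strand, and fragments shared with either gene would make its level uncertain. Creld2, another stress-induced ER protein, had 27.4, 32.4 and 35.5 FPKM in the knockout libraries, against 19.97, 23.9 and 26.3 FPKM in the wild-type libraries. For Creld2 the lowest knockout library, A20-1, was just above the highest wild-type library, BLM3.

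Dnajc3, the J-protein P58IPK, which inhibits PERK, had 43.6, 36.6 and 40.8 FPKM in the knockout libraries, against 35.1, 30.3 and 25.4 FPKM in the wild-type libraries. BLM3 was the lowest library, and the log2 difference of 0.41 was 0.30 without it. The lectin chaperone gene Canx, calnexin, had 135, 122 and 128 FPKM in the knockout libraries, against 109, 112 and 79.1 FPKM in the wild-type libraries. BLM3 was far below BLM1 and BLM2, and without it the log2 difference was 0.21, against 0.37 with all 6. Its soluble counterpart Calr, calreticulin, had 355, 355 and 416 FPKM in the knockout libraries, against 324, 359 and 298 FPKM in the wild-type libraries, and BLM2 lay inside the range of the knockout libraries. In Sdf2l1, which keeps BiP cycling with its client proteins, the values were 67.3, 71.2 and 85.3 FPKM in the knockout libraries, against 69.7, 75.7 and 58.2 FPKM in the wild-type libraries, and the groups overlapped. The single negative difference of the group, -0.026, belonged to the J-protein gene Dnajb11, at 35.97, 41.6 and 36.4 FPKM in the knockout libraries, against 40.6, 37.6 and 37.7 FPKM in the wild-type libraries. Its sign turned positive after TPM rescaling (0.057), so no direction is given for it.

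Of the 5 isomerases, 1 fell (against 0.851% of all genes tested), 2 were higher in every knockout library without passing the test (against 15.9%), and 2 overlapped. Fkbp11 (ENSMUSG00000003355.6, GRCm38 chromosome 15, 98724373 to 98728198, minus strand per the deposited table) encodes a prolyl isomerase of the FK506-binding family that is anchored in the ER membrane and is known for high levels in secretory tissues and antibody-secreting cells. It had 1.86, 1.36 and 3.17 FPKM in the knockout libraries, against 14.3, 10.6 and 9.02 FPKM in the wild-type libraries. The means were 2.13 ± 0.934 FPKM in the knockout and 11.3 ± 2.71 FPKM in the wild-type libraries (SD, n = 3 each). The lowest wild-type library lay far above the highest knockout library, and Fkbp11 fell by 1.99 on the log2 scale (SE 0.25, limma adjusted p = 0.0286). Its difference ran from -2.22 to -1.81 when single libraries were left out. The adjusted p was 0.0175 without BLM3, and the call ended without any other single library, at 0.0573 when BLM2 was left out, 0.0598 for A20-4, 0.0967 for A20-1, 0.111 for BLM1 and 0.124 for A20-3. Few genes of any kind fell in these fits, at 0.711% of all genes tested without BLM2, 0.131% without A20-4, 0.224% without A20-1, 0.0374% without BLM1 and 0% without A20-3.

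Genes that mark antibody-secreting and B cells were compared with Fkbp11, since these cells express it. The summed FPKM of 14 such genes was 46.1, 36.5 and 30.8 in the knockout libraries, against 146, 32.7 and 153 in BLM1, BLM2 and BLM3. Of the 13 tested, 12 had negative differences, and the median log2 difference was -0.88. In every knockout library 2 were lower and 1 was higher, against 13.1% and 15.9% of all genes tested. None passed the limma test, with 1 higher and 2 lower at an unadjusted p under 0.05, against 11% and 9.3%. The sum in BLM2 lay within the range of the knockout libraries, and Fkbp11 in BLM2 was at 10.6 FPKM. The part of these cells in the Fkbp11 values was not tested. The antibody J chain gene Jchain was at 1.79, 2.34 and 1.03 FPKM in the knockout libraries, against 2.20, 1.27 and 2.65 FPKM in the wild-type libraries, and Mzb1, a chaperone cofactor of these cells, at 1.74, 1.28 and 1.34 FPKM, against 6.03, 0.919 and 5.48 FPKM. Sdc1, the plasma cell surface marker syndecan-1, did follow Fkbp11 in being lower in every knockout library, at 1.29, 1.56 and 1.49 FPKM, against 8.62, 3.84 and 13.6 FPKM in the wild-type libraries (limma adjusted p = 0.0797), and it was chosen after its values were seen. In bulk libraries, fewer cells of a type and less RNA per cell cannot be told apart.

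The 4 protein disulfide isomerases form, break and rearrange disulfide bonds, and 0 of 4 passed the test. Pdia4, which encodes ERp72, had 89.04, 111 and 100.2 FPKM in the knockout libraries, against 78.3, 81.8 and 70.6 FPKM in the wild-type libraries (log2 difference 0.37 ± 0.12, SE, limma adjusted p = 0.174). Pdia6, which encodes P5, an enzyme that also acts on IRE1, had 59.5, 65.2 and 67.2 FPKM in the knockout libraries, against 50.8, 55.4 and 49.8 FPKM in the wild-type libraries (log2 difference 0.29 ± 0.10, SE, limma adjusted p = 0.185). For both, every knockout library was higher than every wild-type library. The other pair was more abundant and overlapped between groups. P4hb, the founding disulfide isomerase, had 160.5, 162 and 186 FPKM in the knockout libraries, against 178, 188 and 157 FPKM in the wild-type libraries. Pdia3, which encodes ERp57, the partner of calnexin and calreticulin on glycoproteins, had 196, 207 and 202 FPKM in the knockout libraries, against 197, 219 and 192 FPKM in the wild-type libraries. Their log2 differences of -0.036 and -0.0087 turned positive under TPM rescaling and quantile normalization, so no direction is given.

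Among 7 degradation factors, 2 were higher in every knockout library than in any wild-type library, against 15.9% of all genes tested. Of the differences 5 were positive and 0 passed the test, with a median log2 difference of 0.19. At an unadjusted limma p under 0.05, 2 passed, both higher, against 11% of all genes tested that were higher. Herpud1, a ubiquitin-like ER membrane protein that recruits the degradation complex and is itself induced by ER stress, had the highest difference of the 31. Its values were 28.7, 36.1 and 43.02 FPKM in the knockout libraries, against 19.5, 19.4 and 19.2 FPKM in the wild-type libraries. The wild-type libraries were nearly equal, while the knockout libraries spread widely above them, and the means were 35.96 ± 7.14 FPKM in the knockout and 19.4 ± 0.162 FPKM in the wild-type libraries (SD, n = 3 each). The log2 difference of 0.84 ± 0.15 (SE) missed the threshold with all 6 libraries (limma adjusted p = 0.0635) and with each one left out (0.0514 without BLM3 to 0.198 without A20-3). It passed with library weights (0.0081).

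Syvn1 encodes HRD1, the ubiquitin ligase at the core of the degradation channel. It had 9.39, 12.2 and 10.9 FPKM in the knockout libraries, against 8.04, 8.73 and 6.65 FPKM in the wild-type libraries, without overlap (log2 difference 0.43 ± 0.14, SE, limma adjusted p = 0.174). Its scaffold partner Sel1l had 31.5, 23.9 and 17.6 FPKM in the knockout libraries, against 12.04, 23.1 and 14.4 FPKM in the wild-type libraries. Sel1l varied within each group about as much as between them, with BLM2 above A20-4, and its log2 difference of 0.55 ± 0.29 (SE) had a limma adjusted p of 0.327. Edem1, a lectin that hands over glycoproteins with trimmed mannose, had 38.8, 33.9 and 40.8 FPKM in the knockout libraries, against 32.2, 32.6 and 33.95 FPKM in the wild-type libraries. A20-3 and BLM3 were nearly the same for Edem1. Os9, another lectin of the SEL1L complex, was at 86.5, 79.1 and 87.5 FPKM in the knockout libraries, against 92.4, 91.5 and 84.3 FPKM in the wild-type libraries. The derlins form part of the exit channel, and Derl1 had 44.5, 44.7 and 42.6 FPKM in the knockout libraries, against 42.6, 42.7 and 40.5 FPKM in the wild-type libraries. For Derl2 the values were 8.82, 9.92 and 7.82 FPKM in the knockout libraries, against 9.83, 9.97 and 9.58 FPKM in the wild-type libraries. Os9, Derl1 and Derl2 overlapped between groups, with log2 differences between -0.14 and 0.066.

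The translocon subunits, which admit new proteins to the ER, had a median of 0.02 for the log2 difference, and 0 of 4 passed the test, also at an unadjusted limma p under 0.05. Sec61a1, the channel's pore subunit, was just above in every knockout library, at 28.4, 27.1 and 26.03 FPKM, against 25.5, 24.8 and 20.8 FPKM in the wild-type libraries. Sec61b, a small subunit of the same channel, had 43.7, 52.7 and 40.6 FPKM in the knockout libraries, against 49.1, 58.7 and 53.2 FPKM in the wild-type libraries, and 1 knockout library, A20-3, lay among the wild-type values. The translocon-associated proteins assist entry of glycoproteins. Ssr1 had 19.2, 16.8 and 16.03 FPKM in the knockout libraries, against 18.2, 17.8 and 14.7 FPKM in the wild-type libraries, and Ssr3 had 48.5, 46.1 and 41.7 FPKM, against 47.01, 44.8 and 43.5 FPKM. Both overlapped, and the sign of each changed under library weights, so no direction is given.

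**Figure D4:**
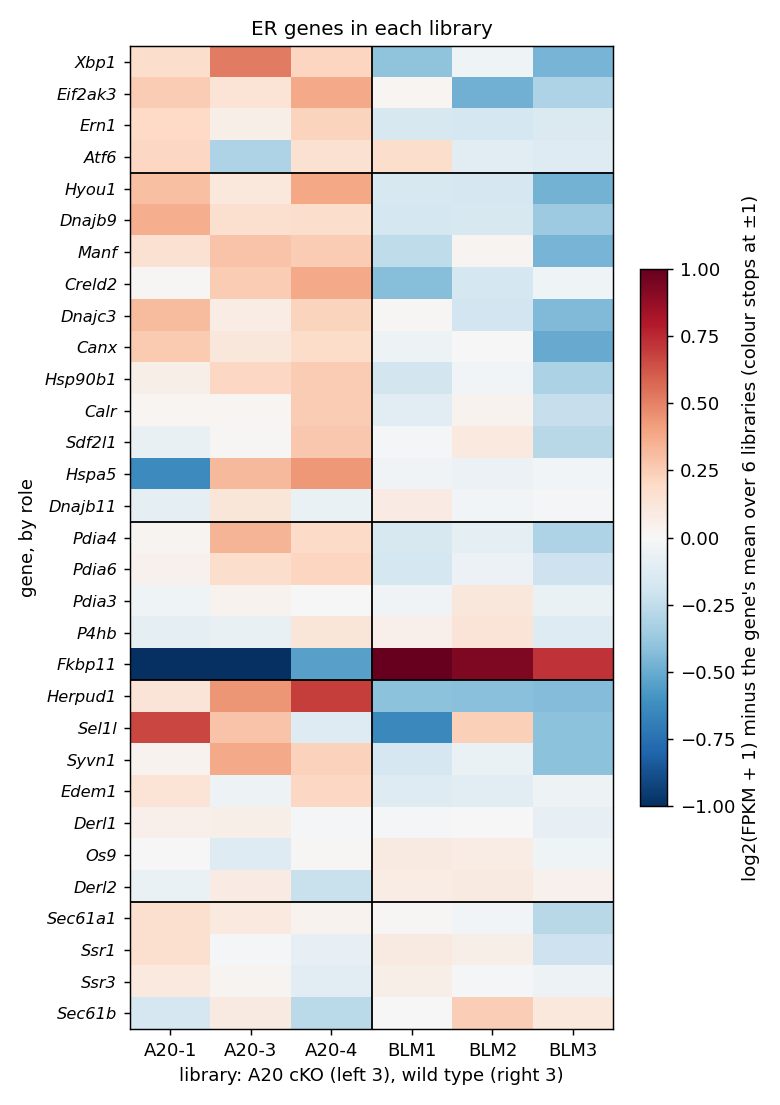
Each gene's log2(FPKM + 1) in each library minus its mean over the 6 libraries, with roles separated by lines, the knockout libraries on the left and the wild-type libraries on the right. Fkbp11 is the single row that is low in all 3 knockout and high in all 3 wild-type libraries, Hspa5 is low in A20-1, and 8 of 11 chaperones are lowest in BLM3.

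Set side by side, the median log2 difference was 0.42 for the sensors and Xbp1, 0.37 for the chaperones, 0.19 for the degradation factors, 0.02 for the translocon and -0.0087 for the isomerases, and no test between roles was made. The order was not stable. The sensors lay below the chaperones under quantile normalization (0.40 and 0.43) and without BLM2 (0.36 and 0.42). With library weights the translocon (-0.063) lay below the isomerases (0.015), as it also did under quantile normalization, without A20-1 and without BLM2. The chaperone genes lay at a median of 0.060, 0.12 and 0.25 log2 units from their 6-library means in A20-1, A20-3 and A20-4, and at -0.11, -0.025 and -0.31 in BLM1, BLM2 and BLM3. The degradation factors lay at 0.052, 0.085 and 0.012 in the knockout libraries, and at -0.13, -0.0066 and -0.082 in the wild-type libraries. BLM3, the library with the most neutrophil transcripts, was thus the lowest for chaperones but not for degradation factors. It was also the lowest for the sensors and Xbp1 (-0.23), the isomerases (-0.13) and the translocon (-0.13). The part of the neutrophil transcripts in these values was not tested. Of the 10 genes in the table with an ERSE or ERSE-II in their window, 7 were higher in every knockout library, and their log2 differences ran from -0.026 to 0.84. Of the 16 with a window that holds neither, 5 were higher in every knockout library, and their differences ran from -1.99 to 0.61. Over all genes tested this share was 15.9%, and no test between the groups was made.

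Other genes of the same processes were taken from lists of their own. For the lists that follow, the shares over all genes tested were 0.252% risen and 0.851% fallen. At an unadjusted limma p under 0.05 they were 11% higher and 9.3% lower. Among 26 further degradation genes tested, 0 passed (4 higher and 2 lower at an unadjusted limma p under 0.05), with a median log2 difference of 0.048. The smallest p there belonged to Tmub1, a ubiquitin-like membrane protein, at 7.27, 8.17 and 8.66 FPKM in the knockout libraries, against 5.86, 5.37 and 4.63 FPKM in the wild-type libraries, and to the lectin gene Erlec1 at 8.38, 7.85 and 7.71 FPKM, against 11.2, 10.01 and 10.7 FPKM. Erlec1 was lower in every knockout library, unlike Tmub1. Of 27 further folding enzymes, 0 passed (1 higher and 2 lower at an unadjusted p under 0.05) and the median was -0.0085. Qsox1, a sulfhydryl oxidase, had 7.26, 7.68 and 7.21 FPKM in the knockout libraries, against 5.17, 5.61 and 4.44 FPKM in the wild-type libraries, and Fkbp2, a soluble ER prolyl isomerase of the same family as Fkbp11, had 69.97, 71.5 and 74.8 FPKM, against 84.5, 93.3 and 97.9 FPKM. Fkbp2 was lower in every knockout library too, with -0.34 ± 0.10 (SE) as its log2 difference and an adjusted p of 0.144 in limma.

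Of 22 genes of N-glycosylation and glycan trimming, 0 passed (3 higher and 0 lower at an unadjusted limma p under 0.05), with a median of 0.044. Mogs, the glucosidase that starts glycan trimming, was close to the threshold, at 21.3, 23.9 and 26.2 FPKM in the knockout libraries, against 14.3, 14.9 and 15.5 FPKM in the wild-type libraries (log2 difference 0.64 ± 0.11, SE, limma adjusted p = 0.0592). It passed without BLM3 (0.0377) and after TPM rescaling (0.0482). Magt1, an oxidoreductase of the oligosaccharyltransferase, had 23.99, 21.8 and 21.5 FPKM in the knockout libraries, against 18.3, 19.3 and 15.9 FPKM in the wild-type libraries. A further list of 20 translocon, signal recognition and signal peptidase symbols had 21 entries in the table. Of these 21, 0 passed (1 higher and 4 lower at an unadjusted p under 0.05) and the median was -0.0054. Spcs1, of the signal peptidase complex, was higher in every knockout library, at 39.8, 42.1 and 35.3 FPKM, against 24.5, 27.1 and 18.5 FPKM in the wild-type libraries, whereas Sec61g, the smallest channel subunit, was lower, at 16.8, 16.8 and 15.8 FPKM, against 19.9, 21.9 and 21.7 FPKM. Of 23 genes of ER-to-Golgi transport, 0 passed (0 higher and 1 lower at an unadjusted p under 0.05), with a median of 0.10. The cargo adaptor gene Mcfd2 had 27.6, 28.5 and 29.4 FPKM in the knockout libraries, against 37.1, 38.3 and 41.7 FPKM in the wild-type libraries, and the coat gene Sec24c had 20.7, 21.3 and 20.6 FPKM, against 17.9, 16.6 and 18.9 FPKM.

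In the branch from PERK to ATF4, 0 of 13 genes tested passed (3 higher and 1 lower at an unadjusted limma p under 0.05) and the median was -0.057. Ppp1r15b, the constitutive subunit of the phosphatase that restores translation, had 44.6, 46.3 and 46.3 FPKM in the knockout libraries, against 31.9, 31.3 and 29.6 FPKM in the wild-type libraries, without overlap (log2 difference 0.55 ± 0.09, SE, limma adjusted p = 0.0537). It passed without BLM3 (0.0356), after TPM rescaling (0.0449) and with library weights (0.0064). It missed with any other single library left out (0.0921 without BLM2 to 0.220 without A20-4). Atf3, a stress-induced transcription factor, was lower in every knockout library, at 14.1, 21.99 and 24.3 FPKM, against 60.1, 40.3 and 77.02 FPKM in the wild-type libraries (log2 difference -1.49 ± 0.29, SE, limma adjusted p = 0.0718). Atf4 and Ddit3, the best known transcription factors of the branch, overlapped between groups, and they were chosen after their values were seen. Atf4 had 66.7, 91.6 and 89.9 FPKM in the knockout libraries, against 79.7, 89.9 and 112 FPKM in the wild-type libraries. Ddit3, which encodes CHOP, had 12.2, 16.8 and 19.3 FPKM in the knockout libraries, against 13.6, 12.8 and 36.8 FPKM in the wild-type libraries, with BLM3 the highest.

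Among 15 components of the ATF6 and IRE1 pathways, 1 fell and 0 rose, with a median of 0.0001. The gene that fell was Wfs1, which encodes wolframin, an ER membrane glycoprotein that restrains ATF6. Wfs1 had 2.33, 2.13 and 2.44 FPKM in the knockout libraries, against 9.88, 6.77 and 7.78 FPKM in the wild-type libraries. All knockout libraries were close to each other and far below the wild-type ones, and the log2 difference was -1.46 ± 0.15 (SE, limma adjusted p = 0.0151). The call held without BLM2 and BLM3 and ended without A20-1, A20-3, A20-4 or BLM1 (adjusted p 0.0584 to 0.102). Creb3l1, an ER-anchored transcription factor related to ATF6, was also lower without overlap, at 1.999, 1.27 and 1.08 FPKM in the knockout libraries, against 3.29, 3.28 and 3.91 FPKM in the wild-type libraries (limma adjusted p = 0.0649), and it too was chosen after its values were seen.

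**Figure D5:**
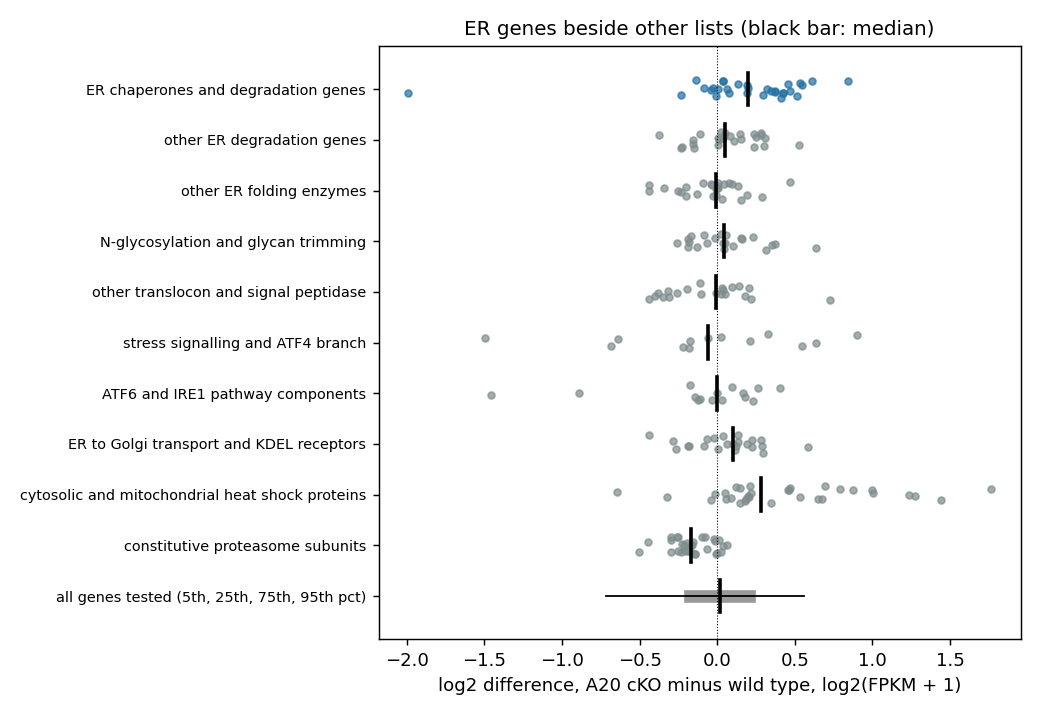
Log2 differences, A20 conditional knockout minus wild type, of the 31 ER genes (top row) and of the tested genes of 9 other lists, each point a gene and each black bar the median. The bottom row gives all genes tested as a box from the 25th to the 75th percentile with a line from the 5th to the 95th; the ER genes have a median of 0.20, heat shock proteins 0.28 and proteasome subunits -0.17.

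A pair of neighbouring systems was set beside the ER genes. Of 32 cytosolic and mitochondrial heat shock proteins, 16 were higher in every knockout library and 0 lower in every one, 0 passed the test (11 higher at an unadjusted limma p under 0.05), and the median log2 difference was 0.28. Without A20-1, 6 of them rose (Dnaja1, Dnajb1, Hspa1a, Hspa1b, Hsph1 and Stip1, chosen after their values were seen; Hspa1a and Hspa1b are near-identical copies that can share reads), against 0.103% of all genes tested. Fkbp4, a co-chaperone of HSP90, had 35.4, 55.8 and 52.8 FPKM in the knockout libraries, against 23.9, 26.4 and 19.01 FPKM in the wild-type libraries (limma adjusted p = 0.0829). Constitutive proteasome subunits, which degrade the proteins that the ER exports, lay on the other side. Of 31, 0 were higher and 19 were lower in every knockout library, 0 passed (7 lower at an unadjusted p under 0.05), and the median was -0.17. For both lists, the shares over all genes tested were 15.9% higher and 13.1% lower in every knockout library. At an unadjusted limma p under 0.05 they were 11% higher and 9.3% lower. Psmb6, a catalytic subunit, had 53.7, 57.4 and 63.01 FPKM in the knockout libraries, against 78.6, 82.8 and 86.2 FPKM in the wild-type libraries, and Psmd8, a subunit of the regulatory cap, had 40.9, 43.9 and 38.7 FPKM, against 56.1, 55.3 and 57.4 FPKM. No test between these lists and the ER genes was made.

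Summed marker levels of other cell types did not overlap between the groups for lung epithelium and dendritic cells, and overlapped for T and NK cells, monocytes and recruited macrophages, and fibroblasts and endothelium. Lung epithelial genes (18 in the table) summed to 498 to 574 FPKM in the knockout libraries, against 133 to 337 FPKM in the wild-type libraries. The club cell gene Scgb1a1 was the most abundant of them on average, at 291, 217 and 112 FPKM, against 66.6, 111 and 23.1 FPKM, while the surfactant gene Sftpc had 37.5, 94.6 and 112 FPKM, against 41.4, 27.4 and 12.7 FPKM. Gene by gene the epithelial list was mixed, with 10 of 16 tested genes positive and 6 negative, 4 higher and 3 lower in every knockout library, and a median log2 difference of 0.54. For this list and those below, 15.9% of all genes tested were higher and 13.1% lower in every knockout library. Dendritic cell genes (9 in the table) summed to 109 to 113 FPKM in the knockout libraries, against 155 to 212 FPKM in the wild-type libraries. Of these genes 8 had negative and 1 a positive difference, with a median log2 difference of -0.42. In every knockout library 2 were lower and 0 higher, and 0 passed the limma test. Genes of T and NK cells (12 in the table) summed to 196 to 240.3 FPKM, against 145 to 414 FPKM. Those of monocytes and recruited macrophages (19 entries in the table for 18 symbols) summed to 3373 to 4141 FPKM, against 3034 to 3763 FPKM. The last list differed entry by entry more than its sum shows, since 15 of 19 entries were negative, 9 were lower and 3 higher in every knockout library, and the median log2 difference was -1.29. Against 0.851% of all genes tested, 4 of the 19 fell in the limma test. Among them the complement gene C1qb, which marks interstitial and recruited macrophages, fell together with Fkbp11, at 150.1, 114 and 93.6 FPKM in the knockout libraries, against 444, 487 and 472 FPKM in the wild-type libraries (limma adjusted p = 0.0134, and 0.0145 to 0.0943 with a library left out). C1qb was chosen after its values were seen. Fibroblast and endothelial genes (4 in the table) stayed between 10.1 and 15.1 FPKM in all 6 libraries. The part of these cell types in the values of the ER genes was not tested.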

How the data were processed

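The deposited table holds FPKM of 11789 protein-coding genes in 6 libraries, per the file headers; the authors' values on GRCm38, per the submitters' processing notes, were used as given. Which aligner and quantifier were used, whether strand was counted, and which annotation release, is not given in the sources used here. Names of the knockout columns begin with A20, and the BLM columns were assigned to wild type as the only other group. The column names do not show which titled sample each is. Genes with a mean of at least 1 FPKM (10696) were tested on log2(FPKM + 1) with limma 3.58.1 (R 4.3.3, moderated test with a mean trend, all 6 libraries, no covariate), with Benjamini-Hochberg adjustment over all of them. The test was checked on simulated data with 200 of 10696 genes changed. It recovered 59% of them at a log2 change of 1 and 93% at 2, with 8 and 12 false calls. Each simulated gene had the same spread in all 6 libraries, whereas the estimated library weights were unequal, so these rates may not hold for the real libraries. Smaller changes, such as most of the members showed, were not simulated. FPKM carry no read counts, so no count model or counting interval was used, and 3 libraries per group limit the precision. Named genes beyond the 31 members are, in each list, those that passed, or else the 2 with the smallest p; marker lists name from their 3 most abundant and first 3 genes. Exceptions are marked where they stand. The members and lists were chosen with earlier results of these data known. Alternatives were other pseudocounts, minima, scalings and weights, and each library left out. Promoters are from RefSeq (GRCm38.p6), and gene overlaps were read from GENCODE M21.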

Additional observations from a re-analysis of the deposited data

How the results depend on the processing

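Over 15 alternatives, the count of risen ER genes was 0 in all but 1, which weighted the libraries and gave 11. The count of fallen ER genes ran from 0 to 1 when single libraries were left out. Over all genes tested, 27 rose and 91 fell with all 6 libraries, 11 and 24 without A20-1, 0 and 0 without A20-3, 0 and 14 without A20-4, 0 and 4 without BLM1, 16 and 76 without BLM2, and 144 and 267 without BLM3. At an unadjusted p under 0.05, limma still had 1694 genes without A20-3. The members' median log2 difference was 0.30 under quantile normalization and ran from 0.21 to 0.30 with a library left out. The Tnfaip3 difference ran from -0.14 to 1.27 with a library left out. Some small differences changed sign. After TPM rescaling they were 0.057 for Dnajb11, 0.0001 for Os9, 0.047 for P4hb and 0.075 for Pdia3. Under quantile normalization they were 0.037 for P4hb and 0.048 for Pdia3. With library weights they were -0.10 for Atf6, 0.015 for Pdia3, -0.072 for Ssr1 and -0.054 for Ssr3, and median centring gave -0.0092 for Ssr3. With a library left out, ranges were -0.059 to 0.20 for Atf6, -0.091 to 0.011 for Dnajb11, -0.12 to 0.42 for Hspa5, -0.11 to 0.020 for P4hb, -0.046 to 0.047 for Pdia3, -0.056 to 0.092 for Ssr1 and -0.039 to 0.068 for Ssr3. The cause was not tested. No paired analysis was possible because the columns do not carry the replicate numbers of the sample titles.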
